A study of Mus musculus with 24 samples.

Results

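*Spp1*, *Ibsp*, *Dmp1* and *Mepe* encode 4 acidic phosphoproteins of bone matrix, the small integrin-binding ligand N-linked glycoproteins. Their transcripts were followed in cultured primary osteoblasts (OBs). The genes were taken by symbol from the count files, 4 of 55335 genes in all, and each symbol had 1 entry. *Spp1* is listed as ENSMUSG00000029304.14, *Ibsp* as ENSMUSG00000029306.8, *Dmp1* as ENSMUSG00000029307.7 and *Mepe* as ENSMUSG00000053863.3. *Dspp*, the family's dentin gene, was followed beside them.

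The cultures came from parietal bones of pups a few days old and were either WT or Het G610C. Het carried 1 allele of *Col1a2* with a cysteine in place of a glycine in the triple helix of the α2 chain of type I collagen, on a C57BL/6J background. Both genotypes were kept in the same ascorbate medium that supports osteogenic differentiation, and RNA was taken on day 8, day 14 or day 21 of culture, giving 4 libraries per genotype and day (24 in all). Cells were pooled from several pups of 1 genotype, so p-values below do not measure the spread between single animals. The paper describes more than 1 culture experiment, with cells from different litters, and the labels do not assign libraries to them. Per the paper these experiments also differed in seeding density. Only the later one began with expansion at low oxygen, which the paper says suppresses differentiation. P-values from all libraries may thus include spread between cell preparations and culture conditions as well as between culture wells. Those without replicate 1 may rest on wells of 1 preparation per genotype.

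Proteins of this family are secreted by cells that make bone and dentin. They carry acidic runs and phosphorylated serines that bind calcium and the surface of hydroxyapatite, and an arginine-glycine-aspartate motif that binds integrins. Bone sialoprotein (*Ibsp*) promotes nucleation of mineral, osteopontin (*Spp1*) slows growth of crystals, DMP1 acts in mineralization and in phosphate balance through osteocytes, and MEPE releases an acidic peptide that inhibits mineralization.

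The 4 genes form a cluster on mouse chromosome 5 (GRCm38, GENCODE annotation). They lie on the plus strand in the order *Dmp1* (chr5:104202613-104214102, 6 exons), *Ibsp* (chr5:104299171-104311469, 7 exons), *Mepe* (chr5:104325329-104338611, 3 exons) and *Spp1* (chr5:104435118-104441050, 6 exons). The cluster spans 238.4 kb. *Dspp* lies upstream of it, at chr5:104170712-104180127. Another annotated transcript, *Gm42793*, lies on the same strand inside *Spp1*, and its count was 9.90% to 12.9% of the *Spp1* count in every library. Reads of these overlapping entries cannot be told apart.

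The stretch just before each start site is shown to let the promoters of the genes that rose be set beside that of *Spp1*. What was measured is the level of transcripts, and transcription itself was not measured. The sequences are from RefSeq (GRCm38.p6, plus strand), at the RefSeq start nearest to the GENCODE start. Capitals mark the inverted CCAAT box (ATTGG), the binding sequence of factor NF-Y. The *Dmp1* stretch is chr5:104202497-104202616, that of *Mepe* chr5:104325209-104325328 and that of *Spp1* chr5:104434991-104435110. For *Ibsp*, where GENCODE begins the transcript 116 bases before RefSeq, only 30 bases around the box are given (chr5:104299221-104299250).
Dmp1: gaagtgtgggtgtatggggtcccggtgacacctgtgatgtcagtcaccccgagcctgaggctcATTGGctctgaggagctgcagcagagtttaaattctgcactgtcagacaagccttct
Ibsp: gccacagctgtgATTGGctgttgagaggcg
Mepe: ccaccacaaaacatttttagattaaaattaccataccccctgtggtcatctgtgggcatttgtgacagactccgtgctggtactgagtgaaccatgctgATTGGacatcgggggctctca
Spp1: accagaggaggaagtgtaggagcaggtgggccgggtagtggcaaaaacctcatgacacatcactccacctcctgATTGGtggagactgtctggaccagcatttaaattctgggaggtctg

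All 4 windows hold the inverted box, at 57 bases before the start in *Dmp1*, 54 in *Ibsp*, 46 in *Spp1* and 21 in *Mepe*. CCAAT on either strand is found in 33.8% of all 32851 RefSeq promoter windows of 250 bases and in 21.3% of those of 120 bases. The RUNX motif TGTGGT, or ACCACA on the other strand, is present within 250 bases of *Mepe* (at 80 and 118 bases before the start), *Spp1* (128) and *Dmp1* (164), against 14.0% of all windows. *Ibsp* and *Mepe* hold the TATA box letters TATAAA read on the other strand (TTTATA), at 28 and 173 bases, and *Spp1* holds them forward at 211 bases (12.4% of all windows). The run TTTAAAT begins 31 bases before the start in *Dmp1* and 20 in *Spp1*. On either strand and at any position, 5.25% of windows of 250 bases and 2.28% of those of 120 bases hold it. That run was picked after the sequences were seen. The homeodomain motif TAATTA is found in *Mepe* only, 208 bases before the start (4.84% of windows), and the AP-1 motif TGANTCA in none of the 4 (6.75%). The E-box CANNTG is found in all 4, as in 66.2% of windows. These matches are letters in a window and were not tested for binding.

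Totals were 17140202 to 25825762 counts in the libraries numbered replicate 1 and 28159342 to 59734231 in those numbered 2 to 4. Levels are given as RQ, a relative quantity obtained by dividing the count of a gene by the geometric mean that *Actb*, *Actg1*, *Sdha* and *Mrfap1*, 4 housekeeping genes, had in that library. The libraries numbered replicate 1 stood apart from the others at every day, so calls are also given without them, while values of genes other than the 4 are from all libraries unless stated. The labels name no batch, so it is not known whether calls without replicate 1 rest on wells of 1 cell preparation per genotype. The 5 chondrocyte markers summed to RQ 8.01 to 34.4 in replicate 1, above every other library of its group. In replicates 2 to 4 they were lower in Het, without overlap, at 5.51 to 16.9 against 20.2 to 25.3 at day 8, 1.42 to 2.57 against 6.35 to 13.2 at day 14 and 1.17 to 1.40 against 3.57 to 5.80 at day 21. The 7 OB markers were detected in every group, and all 7 rose from day 8 to day 14 in both genotypes. The 9 macrophage markers summed to RQ 3.19 to 7.45 in Het and 1.45 to 4.64 in WT at day 14, and to 8.13 to 18.3 in Het and 6.23 to 7.25 in WT at day 21. The 3 smooth muscle markers summed to RQ 2.91 (lowest, WT day 14) to 5.21 (highest, Het day 21). The 4 adipocyte, 4 endothelial and 5 skeletal muscle markers summed to at most RQ 0.0181, 0.00486 and 0.0307. Among all 20287 genes tested for Het against WT, 66 were higher (0.325%) and 64 lower at day 8, 397 (1.96%) and 312 at day 14, and 137 (0.675%) and 55 at day 21 (edgeR's quasi-likelihood test, adjusted p below 0.05). Without replicate 1, 4.13%, 14.3% and 10.7% of genes were called higher in Het. With all libraries and total counts as the scale, 96 genes were higher and 53 lower at day 8, 1524 and 216 at day 14, and 710 and 147 at day 21.

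Together the 4 transcripts took 0.177% to 0.300% of all counts at day 8 and 0.652% to 2.26% at day 21. *Spp1* was abundant from day 8 onward, while *Ibsp*, *Dmp1* and *Mepe* rose by more than an order of magnitude by day 14, except for *Dmp1* in WT. Per kb of exonic length, *Spp1* ranked first at day 8, at RQ 2.01 ± 0.621 per kb in WT (mean ± SD, n = 4), followed by *Ibsp* (0.267 ± 0.105), *Dmp1* (0.00713 ± 0.00400) and *Mepe* (0.000158 ± 0.000111). The order in Het was the same, with 2.13 ± 0.692 for *Spp1*, 0.0906 ± 0.0455 for *Ibsp*, 0.00139 ± 0.000316 for *Dmp1* and 6.35e-05 ± 7.57e-05 for *Mepe*. By day 14 *Ibsp* had passed *Spp1* per kb, at 5.59 ± 1.31 against 3.01 ± 0.0629 in WT. It was the higher of the pair in 0 of 8 libraries at day 8 and in 16 of 16 at days 14 and 21, although in Het day 14 replicate 2 the values, 3.95 and 3.94, were nearly equal. The *Spp1* level per kb depends on how reads shared with *Gm42793* were counted, which is not known. At day 21 WT reached 10.3 ± 4.53 per kb for *Ibsp* and 5.79 ± 3.08 for *Spp1*. Per kb, *Dmp1* was above *Mepe* in 8 of 8 libraries at day 8, in 6 of 8 at day 14 and in 3 of 8 at day 21, so the lower pair did not keep its order. In all 24 libraries *Spp1* and *Ibsp* were each above *Dmp1* and *Mepe* per kb.

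**Figure D1:**
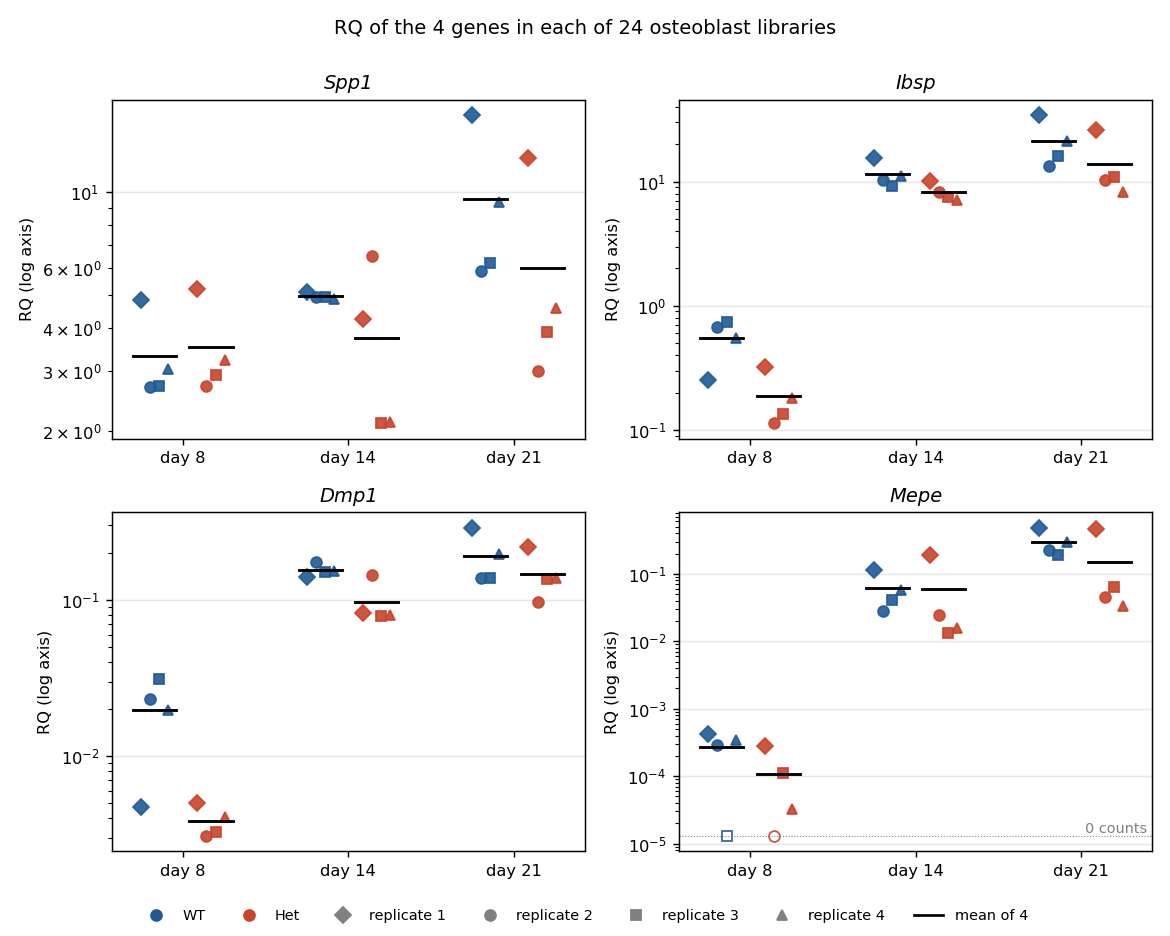
RQ (log axis) of each gene in each of the 24 libraries, by day, with WT in blue and Het in red, the replicate number as the symbol and the mean of 4 as a black line. Open symbols mark the 2 libraries with no *Mepe* count. *Ibsp*, *Dmp1* and *Mepe* lie far higher at day 14 than at day 8, *Spp1* does not, and at day 21 replicate 1 (diamonds) is the highest library of its group for all 4 genes.

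*Spp1* encodes osteopontin, which binds integrins and CD44 and is made by OBs, macrophages and osteoclasts alike. In WT its RQ at day 8 was 4.83, 2.68, 2.70 and 3.04 in replicates 1 to 4, and at day 14 it was 5.11, 4.94, 4.93 and 4.86. At day 21 WT had 16.8, 5.86, 6.19 and 9.34. The WT libraries of day 14 thus lay close together, all above those of day 8, and those of day 21 lay above all of day 14. In Het the values were 5.19, 2.70, 2.92 and 3.23 at day 8, 4.24, 6.49, 2.10 and 2.13 at day 14, and 12.6, 3.00, 3.90 and 4.56 at day 21. Het libraries of the 3 days overlapped, and at day 14 replicate 2 was above, and replicates 3 and 4 far below, every WT library of that day.

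The change of *Spp1* between days did not pass the test in either genotype. From day 8 to day 14 the log2 fold change was 0.58 ± 0.42 (SE) in WT (adjusted p = 0.330, edgeR) and 0.09 ± 0.42 in Het (adjusted p = 0.911), and the Het sign turned with total-count scaling (−0.17). From day 14 to day 21 it was 0.94 ± 0.42 in WT (adjusted p = 0.201) and 0.68 ± 0.42 in Het (adjusted p = 0.411). Without replicate 1, WT rose from day 8 to day 14 by 0.81 ± 0.31 (adjusted p = 0.0445).

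*Ibsp* encodes bone sialoprotein, a marker of OBs that have begun to mineralize their matrix. In WT its RQ was 0.250, 0.668, 0.742 and 0.546 at day 8, 15.4, 10.3, 9.30 and 11.2 at day 14, and 34.3, 13.3, 15.96 and 21.3 at day 21. In Het it was 0.321, 0.113, 0.133 and 0.182 at day 8, 10.1, 8.18, 7.47 and 7.15 at day 14, and 25.9, 10.3, 10.97 and 8.27 at day 21. Every library of day 14 was above every library of day 8 in both genotypes. Days 14 and 21 overlapped in both genotypes through replicate 1 of day 14, and apart from it every library of day 21 was above every library of day 14. *Ibsp* rose 20.9-fold from day 8 to day 14 in WT (log2 4.39 ± 0.44, adjusted p = 1.56e-07) and 43.9-fold in Het (5.46 ± 0.46, adjusted p = 1.17e-08), and without replicate 1 the log2 values were 3.98 and 5.74. The later step, 0.87 ± 0.38 in WT (adjusted p = 0.187) and 0.75 ± 0.38 in Het (adjusted p = 0.287), did not pass the test with all libraries.

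*Dmp1* encodes dentin matrix protein 1, which marks late OBs and young osteocytes. In WT its RQ was 0.00472, 0.0232, 0.0311 and 0.0198 at day 8, 0.141, 0.176, 0.151 and 0.153 at day 14, and 0.290, 0.139, 0.139 and 0.196 at day 21. In Het it was 0.00498, 0.00307, 0.00324 and 0.00404 at day 8, 0.0827, 0.145, 0.0795 and 0.0804 at day 14, and 0.217, 0.0975, 0.136 and 0.138 at day 21. All libraries of day 14 exceeded all of day 8, and days 14 and 21 overlapped in both genotypes. From day 8 to day 14 *Dmp1* rose 7.72-fold in WT (log2 2.95 ± 0.37, adjusted p = 2.69e-06) and 25.8-fold in Het (4.69 ± 0.42, adjusted p = 2.59e-08), with 2.70 and 4.87 on the log2 scale without replicate 1. From day 14 to day 21 the change was 0.30 ± 0.34 in WT (adjusted p = 0.732) and 0.60 ± 0.34 in Het (adjusted p = 0.362). Without replicate 1 that WT value was −0.02 ± 0.21.

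*Mepe* encodes matrix extracellular phosphoglycoprotein, an osteocyte product. At day 8 it was near the limit of detection, with 5, 8, 0 and 10 counts in WT and 4, 0, 3 and 1 in Het. A count of 0 allows up to 3 counts, or 0.0502 to 0.175 CPM at these depths, and such limits cover counting error only. In WT its RQ was 0.116, 0.0281, 0.0410 and 0.0579 at day 14, then 0.484, 0.224, 0.191 and 0.301 at day 21. In Het it was 0.188, 0.0249, 0.0134 and 0.0156 at day 14, then 0.459, 0.0461, 0.0638 and 0.0331 at day 21. All WT libraries of day 21 were above all of day 14, and in Het the same held for replicates 2 to 4, while replicate 1 of day 14 exceeded those libraries of day 21. *Mepe* rose from day 8 to day 14 in both genotypes, by a log2 of 7.89 ± 1.31 in WT (adjusted p = 7.83e-05) and 9.43 ± 1.50 in Het (adjusted p = 3.95e-05). Without replicate 1 they were 7.55 and 8.43. These sizes rest on few counts, with 23 and 8 summed over the day 8 libraries and depend on the prior count of the fit.

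*Mepe* was also the member with the largest later change. Between days 14 and 21 its log2 fold change was 2.32 ± 0.81 in WT (adjusted p = 0.0821) and 1.34 ± 0.80 in Het (adjusted p = 0.384). With the replicate number as a block, which removes what libraries of 1 number share, it rose by 2.45 ± 0.39 in WT (adjusted p = 0.000720) and 1.37 ± 0.39 in Het (adjusted p = 0.0325). Within each number *Mepe* went up 4.16-, 7.96-, 4.67- and 5.20-fold in WT and 2.44-, 1.85-, 4.78- and 2.12-fold in Het, so 8 of 8 pairs of libraries went the same way. In Het the fitted value was 3.07 with replicate 1 of day 14 alone left out (adjusted p = 0.0225) and −0.30 with that of day 21 alone left out (adjusted p = 0.869), and without both it was 1.45 ± 0.29 (adjusted p = 0.00251).

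*Dspp*, which encodes dentin sialophosphoprotein, was not detected above the limit of counting. It had no count in 18 of 24 libraries, at most 2 in any, and 7 in all.

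Thus 3 of 4 members were called higher at day 14 than at day 8 in each genotype, and the share of all genes tested that was called higher was 23.6% in WT and 26.5% in Het. In the step from day 14 to day 21, 0 of 4 were called higher in either genotype, against 5.04% of genes in WT and 3.88% in Het. With the block the later step had 1 of 4 in each genotype (*Mepe*), against 7.94% and 6.75% of genes. Without replicate 1, all 4 were called higher at day 14 in WT, where 31.0% of genes were, and 3 of 4 in Het, where 42.2% were. In the later step *Ibsp* and *Mepe* were then called higher in WT, where 17.9% of genes were called in either direction, and *Mepe* in Het, where 18.8% were. From day 8 to day 14 the median over all genes was itself 0.12 on the log2 scale in both genotypes, and −0.16 in WT with total counts as the scale, where 2604 genes were called higher and 6363 lower in WT in place of 4778 and 1494. The rises of *Ibsp*, *Dmp1* and *Mepe* are far larger than that shift.

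For Het against WT, *Dmp1* at day 8 was the difference that passed the test with all libraries. It was 5.35-fold lower in Het (log2 −2.42 ± 0.40, adjusted p = 0.00845), with 1 of 4 members called lower against 0.315% of genes tested. In replicates 2 to 4 the Het values, 0.00307 to 0.00404, lay below the WT values, 0.0198 to 0.0311. In replicate 1 the genotypes were alike, at 0.00498 and 0.00472, and it was WT replicate 1 that lay apart from its group. The call was lost when replicate number 2, 3 or 4 was left out in both genotypes at every day (adjusted p = 0.296, 0.613 and 0.409), with log2 fold changes of −2.24, −2.05 and −2.45. It was also lost without WT day 8 replicate 3 (adjusted p = 0.0502), Het day 8 replicate 2 (adjusted p = 0.0651) or Het day 8 replicate 3 (adjusted p = 0.0508) alone.

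*Ibsp* at day 8 had the same arrangement. Replicates 2 to 4 were at 0.113 to 0.182 in Het and 0.546 to 0.742 in WT, whereas replicate 1 was at 0.321 in Het and 0.250 in WT. Over all libraries the log2 fold change of −1.56 ± 0.39 did not pass (adjusted p = 0.0670). It passed without replicate 1 of either genotype alone (−1.80 and adjusted p = 0.0197 without that of WT, −1.95 and adjusted p = 0.00918 without that of Het). With the block it was −1.76 ± 0.34 and passed (adjusted p = 0.0180), which made 2 of 4 members called lower against 1.05% of genes. The same 2 were called with TMM scaling, where 0.311% of genes were called lower, with DESeq2's size factors (0.286%) and with DESeq2's Wald test (1.04%). Without replicate 1, *Dmp1* was lower by −2.83 ± 0.28 (adjusted p = 5.64e-06) and *Ibsp* by −2.19 ± 0.19 (adjusted p = 2.15e-06), again 2 of 4, but then 13.2% of genes were called lower.

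The difference of *Spp1* at day 8 was smaller than the spread of replicates. The Het value was above the WT value of the same number in 4 of 4 pairs, by 1.01 to 1.08 times, and the fitted difference was 0.08 ± 0.42 (adjusted p = 0.993). For *Mepe* at day 8 the fit gave −1.58 ± 3.04 (adjusted p = 0.945), and a difference was not detectable at these counts.

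**Figure D2:**
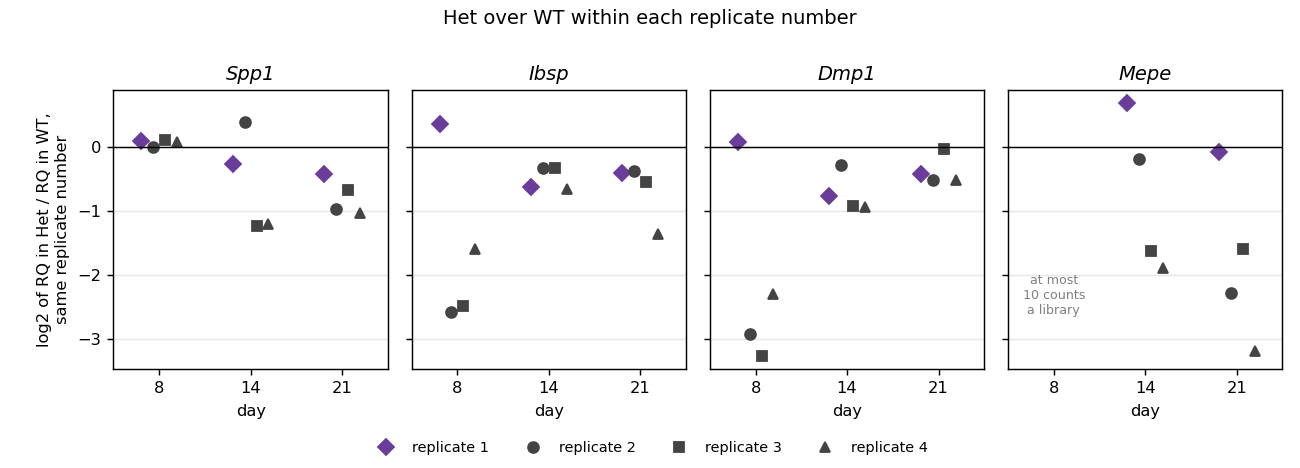
The log2 ratio of RQ in Het to RQ in WT for libraries with the same replicate number, by day and gene, with replicate 1 as a purple diamond. *Mepe* at day 8, with at most 10 counts in a library, is not drawn. At day 21 all drawn points lie below 0, and at day 8 *Ibsp* and *Dmp1* lie far below 0 in replicates 2 to 4 and slightly above it in replicate 1.

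At day 14 Het was lower than WT in 4 of 4 pairs for *Ibsp*, with ratios of 0.638 to 0.803, and in 4 of 4 for *Dmp1*, with 0.526 to 0.826. *Spp1* was lower in 3 of 4 pairs (0.426 to 1.31) and *Mepe* in 3 of 4 (0.269 to 1.62). The share of all genes with such pair counts is not given here. In the fit with all libraries none of these passed, with log2 fold changes of −0.49 ± 0.38 for *Ibsp* (adjusted p = 0.483), −0.68 ± 0.34 for *Dmp1* (adjusted p = 0.256), −0.41 ± 0.42 for *Spp1* (adjusted p = 0.623) and −0.04 ± 0.79 for *Mepe* (adjusted p = 0.990). The sign for *Mepe* turned under the other scalings (0.08 with TMM and 0.11 with total counts). The call was 0 of 4, where 1.54% of genes were called lower. Without replicate 1, *Dmp1* (−0.66 ± 0.21, adjusted p = 0.0260) and *Mepe* (−1.28 ± 0.29, adjusted p = 0.00336) were called lower, 2 of 4 against 14.7% of genes.

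At day 21 every Het library was below the WT library of its number for all 4 genes, a count given without the share of all genes that did the same. The ratios were 0.489 to 0.749 for *Spp1*, 0.389 to 0.776 for *Ibsp*, 0.703 to 0.980 for *Dmp1* and 0.110 to 0.949 for *Mepe*. With all libraries the groups overlapped and 0 of 4 passed, with log2 fold changes of −0.67 ± 0.42 for *Spp1* (adjusted p = 0.470), −0.61 ± 0.38 for *Ibsp* (adjusted p = 0.461), −0.38 ± 0.34 for *Dmp1* (adjusted p = 0.652) and −1.01 ± 0.78 for *Mepe* (adjusted p = 0.569), where 0.271% of genes were called lower. With the block *Mepe* was lower by −1.78 ± 0.39 (adjusted p = 0.0148), 1 of 4 members against 2.36% of genes.

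The libraries behind that difference were replicates 2 to 4. In these, *Mepe* was at 0.0477 ± 0.0154 in Het and 0.239 ± 0.0565 in WT (SD, n = 3), a 5.01-fold gap with no overlap, while in replicate 1 the genotypes stood at 0.459 and 0.484. Without replicate 1 the log2 fold change of *Mepe* was −2.33 ± 0.27 (adjusted p = 2.92e-05). *Ibsp* (−0.77 ± 0.18, adjusted p = 0.00476) and *Spp1* (−0.90 ± 0.31, adjusted p = 0.0450) were then called lower too, and *Dmp1* was not (−0.35 ± 0.21, adjusted p = 0.242). That is 3 of 4 members against 13.5% of genes. With Het day 21 replicate 1 alone left out, *Mepe* (−2.65, adjusted p = 0.0339) and *Spp1* (−1.32, adjusted p = 0.0460) were called.

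**Figure D3:**
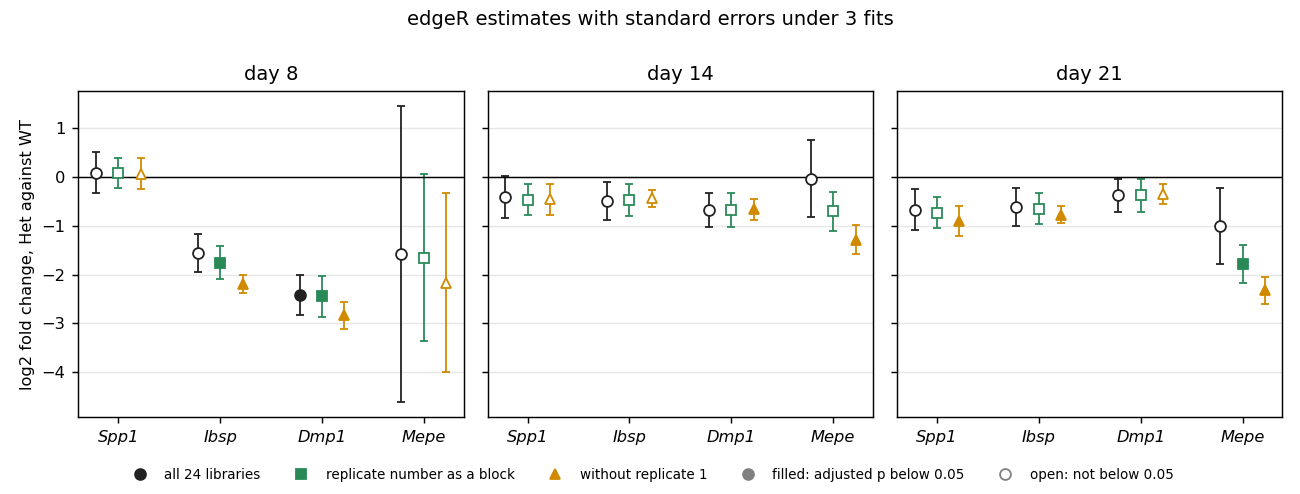
The log2 fold change of Het against WT (y axis) with its standard error (bars) for each gene at each day, fitted with all 24 libraries, with the replicate number as a block and without replicate 1. Filled symbols mark adjusted p below 0.05. *Dmp1* at day 8 is filled in all 3 fits, and *Mepe* at day 21 moves from −1.01 to −1.78 and −2.33.

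Days 14 and 21 were also pooled as mean RQ over 8 libraries per genotype, with a two-sided exact permutation test, in which the smallest p is 0.000155 and a change required a ratio above 1.2 or below 0.8. The ratio of Het to WT was 0.706 for *Dmp1* (0.122 ± 0.0475 and 0.173 ± 0.0514, SD, n = 8, exact permutation p = 0.0573). It was 0.674 for *Ibsp* (11.04 ± 6.16 and 16.4 ± 8.20, n = 8, exact permutation p = 0.173). For *Spp1* it was 0.672 (4.87 ± 3.43 and 7.25 ± 4.13, n = 8, exact permutation p = 0.253). *Mepe* gave 0.585 (0.105 ± 0.154 and 0.180 ± 0.156, n = 8, exact permutation p = 0.345). None of the 4 p-values, which are not adjusted, passed, although Het was lower in 8 of 8 pairs for *Dmp1* and *Ibsp* and in 7 of 8 for *Spp1* and *Mepe*. These pair counts too are given without the share of all genes. With exchange allowed within pairs of 1 replicate number and day only, the exact permutation p was 0.00781 for *Dmp1* and for *Ibsp*, the smallest this design can give, 0.0234 for *Spp1* and 0.109 for *Mepe*. Without replicate 1 the ratios were 0.710, 0.644, 0.614 and 0.233 for *Dmp1*, *Ibsp*, *Spp1* and *Mepe* (n = 6 per genotype, exact permutation p = 0.0108, 0.0152, 0.0346 and 0.0433).

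The effect of genotype was compared between days. From day 8 to day 14 the Het-to-WT difference of *Dmp1* shrank by 1.74 ± 0.52 on the log2 scale and that of *Ibsp* by 1.07 ± 0.54. Neither passed with all libraries (adjusted p = 0.607 and 1.00), and 0 of 4 members were called against 0.0592% of genes in either direction. Without replicate 1 both did, with 2.17 ± 0.35 for *Dmp1* (adjusted p = 0.00207) and 1.76 ± 0.25 for *Ibsp* (adjusted p = 0.000823), 2 of 4 against 3.69% of genes called higher. Without WT day 8 replicate 1 alone *Dmp1* passed as well (2.04, adjusted p = 0.0361). Between days 14 and 21 no member was called, nor was any gene (0% in edgeR's quasi-likelihood test, 451 genes at an unadjusted p under 0.05, and 0 with DESeq2's Wald test). Without replicate 1 it was 13 genes (0.066%), and again no member.

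Collagen and cell type markers are set beside these genotype differences. *Col1a1*, which encodes the major chain of type I collagen, had RQ 82.7, 116, 103 and 97.7 in Het and 82.6, 161, 168 and 138 in WT at day 14, a log2 fold change of −0.46 ± 0.26 (adjusted p = 0.310). *Col1a2*, the mutated gene, had −0.46 ± 0.25 at that day (adjusted p = 0.302). Of the 7 OB markers, *Ifitm5*, a membrane protein of mineralizing OBs, was called lower in Het at day 8 (−1.99 ± 0.28, adjusted p = 0.00186). In replicates 2 to 4 the 7 summed to RQ 55.7 to 70.29 in Het and 70.34 to 88.3 in WT at day 8. The sums were 189 to 225 and 265 to 321 at day 14, and 194 to 256 and 302 to 324 at day 21. They were lower in Het at each day without overlap, although the gap at day 8 was very small. *Col1a1* and *Col1a2* made up most of each sum, at 34.6 and 32.1 in Het day 8 replicate 2. The sums thus say little about the other markers. Without replicate 1, 3 of the 7 were called lower in Het at day 8, 6 at day 14 and 7 at day 21. The shares of all genes called lower were then 13.2%, 14.7% and 13.5%. In the same fit 5 of 5 chondrocyte markers were called lower in Het at every day. Of the 9 macrophage markers, 3 were higher in Het at day 8 (0.325% of all genes), 4 at day 14 (1.96%) and 0 at day 21 (0.675%). Without replicate 1, where 4.13%, 14.3% and 10.7% of all genes were called higher, 9, 9 and 8 of these markers were. In replicates 2 to 4 their summed RQ was 0.748 to 1.03 in Het and 0.236 to 0.292 in WT at day 8, 6.87 to 7.45 and 1.45 to 2.47 at day 14, and 11.4 to 18.3 and 6.23 to 7.25 at day 21. The 8 osteoclast markers summed to 0.348 to 0.545 at day 8 and 0.664 to 1.09 later, in ranges that overlapped between genotypes. The part of OB, chondrocyte or macrophage content in the differences of the 4 genes was not tested. In bulk cultures, fewer cells of a type and less RNA per cell cannot be told apart.

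The enzymes that modify these proteins were examined as a list of 13 kinases, proteases and phosphatases. From day 8 to day 14, 8 rose in WT and 9 in Het and none fell, with a list median of 0.86 and 0.91 beside 0.12 over all genes. That is 8 and 9 of 13 against the 23.6% and 26.5% of all genes called higher, and 7.36% and 9.09% were called lower. *Phex*, an osteocyte endopeptidase that cleaves the acidic peptide of MEPE and of osteopontin, rose by 4.43 ± 0.45 in WT (adjusted p = 2.01e-07) and 5.64 ± 0.49 in Het (adjusted p = 1.47e-08). *Mmp9*, a gelatinase of osteoclasts and other cells, was next in WT at 2.51 ± 0.46 (adjusted p = 0.000229), and *Mmp3*, which cleaves osteopontin, was next in Het at 2.65 ± 0.52 (adjusted p = 0.000383). *Fam20c*, the Golgi kinase that phosphorylates the family, rose by 1.13 ± 0.13 in WT (adjusted p = 9.38e-07) and 1.56 ± 0.13 in Het (adjusted p = 1.30e-08). For Het against WT, 0 of 13 were called at day 8, *Mmp9* (−1.72 ± 0.45, adjusted p = 0.0412) and the proprotein convertase *Furin* (−0.33 ± 0.07, adjusted p = 0.0190) were lower at day 14, and *Fam20a*, a pseudokinase partner of *Fam20c*, was higher at day 21 (0.87 ± 0.20, adjusted p = 0.0454). The lysosomal protease *Ctsb* was the member called between days 14 and 21, higher by 0.68 ± 0.14 in WT (adjusted p = 0.00421) and 0.63 ± 0.13 in Het (adjusted p = 0.00923). Without replicate 1, 10 rose in WT and 9 in Het by day 14, against 31.0% and 42.2% of all genes. For Het against WT 2 were then higher and 4 lower at day 8, among them *Phex*, and 4 higher and 5 lower at days 14 and 21. Of all genes, 4.13%, 14.3% and 10.7% were called higher at days 8, 14 and 21, and 13.2%, 14.7% and 13.5% lower.

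Of 10 receptors, integrin chains and CD44, 2 rose and 2 fell from day 8 to day 14 in each genotype, a share of rises near that of all genes. *Itga4* rose by 2.20 ± 0.18 in WT (adjusted p = 1.52e-08) and 2.27 ± 0.18 in Het (adjusted p = 6.53e-09), and by a further 0.77 ± 0.17 in Het at day 21 (adjusted p = 0.0122). *Itgb6* fell by 2.14 ± 0.71 in WT (adjusted p = 0.0254) and fell by 3.42 ± 0.84 in Het (adjusted p = 0.00282). For Het against WT, *Itga9* was higher at day 21 (0.37 ± 0.08, adjusted p = 0.0322) and 0 of 10 were called at days 8 and 14. Without replicate 1, 1 was higher at day 8 (*Cd44*), 1 at day 14 (*Itga9*) and 4 at day 21, when 1 was lower. The shares of all genes called higher were then 4.13%, 14.3% and 10.7%, and 13.5% were called lower at day 21. Osteopontin is a known ligand of integrins that contain the α4 or α9 chain.

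Of 7 regulators of mineral and phosphate, 6 were tested. *Phospho1*, a phosphatase of matrix vesicles, rose from day 8 to day 14 by 3.14 ± 0.33 in WT (adjusted p = 2.68e-07) and 4.19 ± 0.34 in Het (adjusted p = 7.69e-09). *Slc20a1*, a phosphate transporter, fell by 1.65 ± 0.36 in WT (adjusted p = 0.00124) and fell by 1.68 ± 0.36 in Het (adjusted p = 0.000913). In each genotype 1 member of this list rose, while 1 fell in WT and 2 fell in Het, and 1 of 6 is a lower share of rises than among all genes. None of the 6 was called between genotypes at any day with all libraries. Without replicate 1 there was 1 lower in Het at day 8 (*Phospho1*) and 2 at day 14 (*Mgp* and *Slc20a2*), against 13.2% and 14.7% of all genes.

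Of 18 transcription factors of the lineage, 10 rose and 3 fell from day 8 to day 14 in WT, and 9 rose and 4 fell in Het, where among all genes 23.6% and 26.5% rose and 7.36% and 9.09% fell. *Dlx3*, a homeodomain factor, rose by 3.53 ± 0.30 in WT (adjusted p = 2.18e-08) and 4.92 ± 0.34 in Het (adjusted p = 6.10e-10), and *Mef2c*, a factor of osteocytes, by 2.54 ± 0.32 (adjusted p = 2.48e-06) and 3.17 ± 0.33 (adjusted p = 1.68e-07). *Runx2*, the factor that sets the OB lineage, rose by 1.08 ± 0.18 in WT (adjusted p = 8.46e-05) and 0.91 ± 0.18 in Het (adjusted p = 0.000441), and *Sp7*, which acts after it, by 1.46 ± 0.19 (adjusted p = 2.91e-06) and 1.61 ± 0.19 (adjusted p = 7.73e-07). At day 8 *Dlx3* was the 1 factor of 18 called between genotypes, lower in Het (−1.59 ± 0.32, adjusted p = 0.0271). *Esr1*, the estrogen receptor, was the 1 called between days 14 and 21, higher in WT (0.91 ± 0.24, adjusted p = 0.0233). Without replicate 1, 10 rose and 6 fell by day 14 in WT, and 10 and 5 in Het, against 13.7% and 12.7% of genes that fell. Then 6, 8 and 10 factors were lower in Het at days 8, 14 and 21, and 2, 1 and 1 higher, with *Sp7* lower at each day. The shares of all genes were 13.2%, 14.7% and 13.5% called lower in Het and 4.13%, 14.3% and 10.7% called higher.

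The rise at day 14 was then followed along the chromosome. Besides *Dspp*, 11 other protein-coding genes lie within 500 kb of the cluster, and 9 of them had enough counts to test. *Nudt9*, *Hsd17b11*, *Sparcl1*, *Pkd2* and *BC005561*, all close to the cluster, were not called in either genotype with all libraries, and without replicate 1 *Nudt9* was called higher in both and *Hsd17b11* in Het. *Aff1* fell by 0.70 ± 0.14 in WT and fell by 0.71 ± 0.14 in Het (adjusted p = 0.000687 and 0.000510), and *Klhl8* rose by 0.48 ± 0.09 and 0.40 ± 0.09 (adjusted p = 0.000293 and 0.00124). *Zfp951* rose in WT (0.42 ± 0.15, adjusted p = 0.0394). *Abcg3*, far beyond *Spp1*, rose by 3.92 ± 0.47 in WT and 3.93 ± 0.42 in Het (adjusted p = 1.60e-06 and 2.87e-07). Over all genes 23.6% in WT and 26.5% in Het were called higher in this step, and 7.36% and 9.09% lower. Not 1 of the 9 was called between genotypes with all libraries. Without replicate 1 there were 0 at day 8, 3 at day 14 and 2 at day 21. Of all 19686 genes tested, 3412, 5723 and 4767 were then called at these days. *Ibsp* and *Mepe*, which rose most, are neighbours, and *Spp1*, which did not pass, is the last gene of the cluster.

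**Figure D4:**
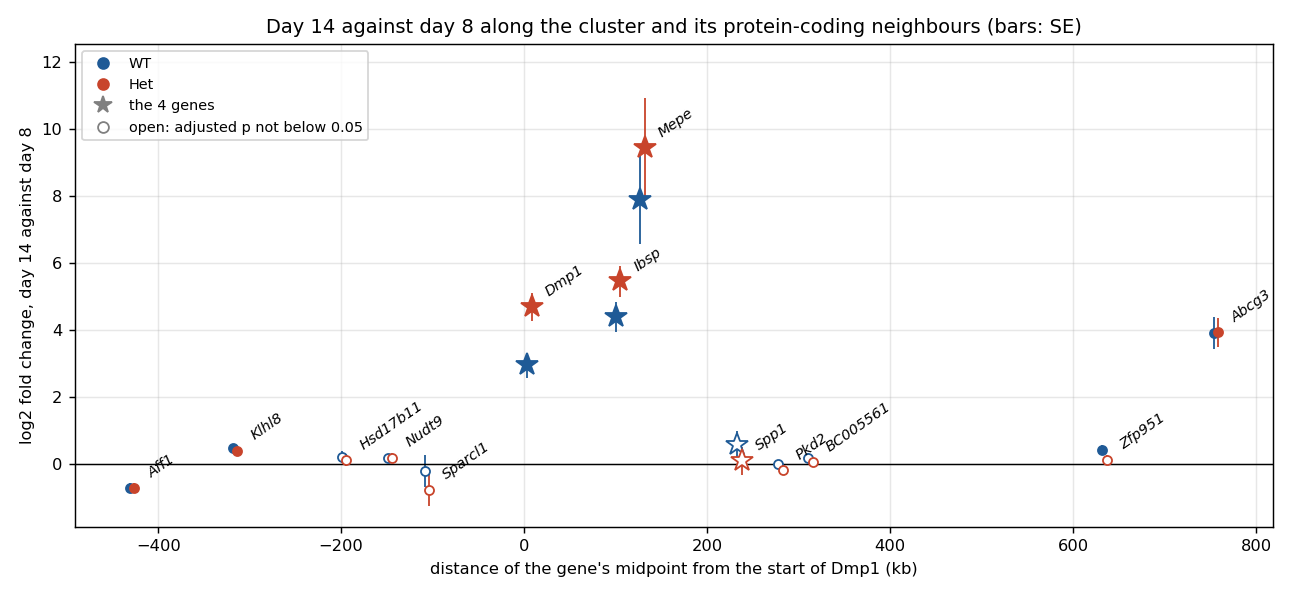
The log2 fold change of day 14 against day 8 (y axis, bars are SE) for the 4 genes (stars) and the 9 tested protein-coding neighbours (circles), by distance of the gene's midpoint from the start of *Dmp1* in kb, with WT in blue and Het in red. *Dmp1*, *Ibsp* and *Mepe* lie between 2.95 and 9.43, and the genes on either side of the cluster lie near 0 apart from *Abcg3*.

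Likeness of profiles was measured as the root mean square difference of log2 levels, each gene centred on its own mean, over the 24 libraries, which share their scaling. The levels were edgeR's log2 CPM on the scale of the housekeeping genes, with a prior count of 2 added. Distances and spread of *Mepe*, which had few or no counts at day 8, depend on that prior count. Among the members *Ibsp* and *Dmp1* were closest, at 0.72, and *Spp1* and *Mepe* farthest apart, at 3.81. Among genes with a mean count of at least 50, the 3 nearest to *Ibsp* were *Col22a1* (0.45), *Gm16308* (0.52) and *Bmp8a* (0.53). The nearest to *Dmp1* were *Car3* (0.42), *Ifitm5* (0.46) and *Adgrd1* (0.47). The nearest to *Mepe* were *Bglap*, which encodes osteocalcin, at 1.43, *Lipc* at 1.49 and *Spock1* at 1.501. Such distances depend on how far a gene itself moves. The root mean square about the gene's own mean was 4.24 for *Mepe*, 2.65 for *Ibsp*, 2.13 for *Dmp1* and 0.737 for *Spp1*. The profile nearest to *Spp1* was that of *Gm42793* (0.10), the entry that lies inside it, followed by *Rem1* (0.35) and *Fgf7* (0.39). In replicates 2 to 4 *Col22a1*, *Car3* and *Bglap* were again the first for *Ibsp*, *Dmp1* and *Mepe*, at 0.30, 0.38 and 0.86.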

How the data were processed

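RNASeq of cultured primary OBs (WT and Het, days 8, 14 and 21, 4 libraries each) was analysed from 1 table of counts per library, deposited by the authors as raw counts of reads per gene for 55335 genes. Per the labels, polyadenylated RNA was made into TruSeq libraries, and the submitters' processing notes name cutadapt 2.5, STAR 2.73a, Subread, featureCounts 1.6.4 and mm10. Strand setting and handling of overlapping genes are not given in the sources used here. Counts include PCR duplicates, and totals ranged from 17140202 to 59734231 per library.

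RQ followed the paper. Counts were tested in R 4.3.3 with edgeR 4.0.16 (glmQLFit, glmQLFTest) in 1 fit of 6 groups, with the geometric mean of 4 housekeeping genes as library size, filterByExpr (20287 genes), Benjamini-Hochberg adjustment over all genes tested at 0.05, and a prior count of 2 for fold changes. Mean RQ was compared with exact permutation tests (two-sided) in Python 3.11.15. Code was tested on simulated data. Alternatives were TMM, DESeq2 1.42.0 size factors, total counts, no filter, DESeq2's Wald test, a replicate block, and leaving out each replicate number or library.

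Replicate numbers are from the labels. Deviations from group means of same-numbered WT and Het libraries were correlated across genes in all 12 pairs (r = 0.255 to 0.780, median 0.462, against −0.0850 over 36 pairs with different numbers), so numbers were used as a block. Most of the contrast comes from replicate 1. Among replicates 2 to 4, pairs with different numbers had r = 0.0927 to 0.501 (18 pairs) and those with the same number 0.255 to 0.533 (9 pairs), ranges that overlap, so a pairing by number within 2 to 4 is not shown. The study's methods describe more than 1 culture experiment, with cells from different litters and with different seeding density and early oxygen. The labels do not tell which library came from which experiment.

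The members, gene lists and motifs were chosen with earlier results of these data known. Named were the 4 members, *Dspp*, the 2 largest called changes of each of 4 lists per comparison, protein-coding genes within 500 kb, the 3 nearest profiles, collagen genes and markers. *Runx2*, *Sp7*, *Fam20c* and *Phex* are given besides, for their known roles. Coordinates are from GENCODE mouse release M21, sequences from RefSeq.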

Additional observations from a re-analysis of the deposited data

Results flagged for a closer look

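In 6 of the 24 groups of 4 libraries (4 genes, 2 genotypes, 3 days) 1 library lay far from the others, by Dixon's ratio of its gap to the range against its 95% critical value. Chance flags about 1 in 20 groups. In 5 of the 6 it was replicate 1, as the highest. For *Mepe* in Het the ratio was 0.934 at day 14 and 0.928 at day 21, where replicate 1 was at RQ 0.188 and 0.459 and the others were at 0.0134 to 0.0249 and 0.0331 to 0.0638. For *Spp1* in Het at day 21 it was 0.837, with 12.6 against 3.00 to 4.56, and for *Ibsp* in the same libraries 0.847, with 25.9 against 8.27 to 10.97. For *Spp1* in WT at day 8 it was 0.832, with 4.83 against 2.68 to 3.04. The exception was *Dmp1* in Het at day 14, with a ratio of 0.950, where replicate 2 was at 0.145 and the others were at 0.0795 to 0.0827. *Spp1* in the same library was also the highest of its group, at 6.49. Replicate 1 libraries had fewer counts and more chondrocyte marker RNA than the others. The part of either in these values was not tested.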

How the results depend on the processing

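For Het against WT at day 8, TMM, DESeq2's size factors, the replicate block and DESeq2's Wald test each called 2 members in place of 1. *Ibsp* then passed, at −1.54 (TMM, adjusted p = 0.0476), −1.53 (size factors, adjusted p = 0.0463), −1.76 (block, adjusted p = 0.0180) and −1.56 (Wald test, adjusted p = 0.0143). *Mepe* at day 14 turned from −0.04 to 0.0806 with TMM, 0.0771 with size factors and 0.113 with total counts. *Spp1* from day 14 against day 8 in Het turned from 0.09 to −0.0016, −0.0033 and −0.17 under the same scalings. With the block 1 member, *Mepe*, was called at day 21 (−1.78) and 1 in the step to day 21 in each genotype. Exchange within pairs gave the RQ ratios of 0.672 for *Spp1*, 0.674 for *Ibsp* and 0.706 for *Dmp1* a p under the threshold (exact permutation, 0.0234, 0.00781 and 0.00781). That exchange takes the pairing by number as given, and within replicates 2 to 4 it is not shown. Geometric means gave 0.686 for *Dmp1* (exact permutation p = 0.0312). The block changed no other call of a member.

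Leaving out a replicate number or 1 library called 0 to 2 members at day 8, 0 to 2 at day 14, 0 to 3 at day 21, 0 to 2 and 0 to 1 in the later step of WT and Het, and 0 to 2 for the difference between days 8 and 14. At day 8 the log2 fold change ranged from −2.83 to −2.05 for *Dmp1*, −2.19 to −1.25 for *Ibsp* and −0.17 to 0.32 for *Spp1*. At day 14 it ranged from −0.94 to −0.59 for *Dmp1* and −1.76 to 0.47 for *Mepe*, and at day 21 from −1.11 to −0.28 for *Ibsp*, −2.65 to −0.67 for *Mepe* and −1.32 to −0.25 for *Spp1*. Over time it ranged from −0.0166 to 0.490 for *Dmp1* in WT (day 21 against 14), −0.42 to 0.34 for *Spp1* in Het (day 14 against 8) and −0.30 to 3.07 for *Mepe* in Het (day 21 against 14). The difference of the Het effect ranged from −0.18 to 2.39 for *Mepe* (day 14 minus 8), and from −0.62 to 0.21 for *Ibsp*, −2.61 to 0.75 for *Mepe* and −0.91 to 0.20 for *Spp1* (day 21 minus 14). RQ ratios ranged from 0.614 to 0.737 for *Spp1*, 0.644 to 0.739 for *Ibsp*, 0.687 to 0.733 for *Dmp1* and 0.233 to 0.733 for *Mepe*.

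The other values kept their direction and side of the threshold, or stayed close for counts, in 278 cases with another scaling, filter, test or block, 162 without a replicate number and 407 without a library. The causes of the changes were not tested. *Mepe* at day 8 was limited by its counts. Among all genes, 130, 709 and 192 were called for Het against WT at days 8, 14 and 21. These became 317, 1974 and 956 with the block, 450, 1712 and 793 with DESeq2's Wald test, and 3412, 5723 and 4767 without replicate 1, whereas leaving out another number left 0, 6 to 15 and 4 to 15. At days 14 and 21 they were 1399 and 460 with TMM, 1362 and 508 with size factors, 1740 and 857 with total counts, and 263 and 92 without the filter on low counts. At day 14 the calls were 1061 higher and 338 lower with TMM, 1013 and 349 with size factors, and 887 and 1087 with the block. For the step from day 14 to day 21 in WT and Het, 1748 and 972 became 2683 and 1706 with the block and 3527 and 3702 without replicate 1, and without another number fell to 34 to 256 and 28 to 196. For the difference between days 8 and 14, 12 became 7 with TMM and size factors, 8 with total counts, 6 without the filter, 19 with the block, 52 with the Wald test and 822 without replicate 1, and 0 or 1 without another number.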

Other observations

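Other osteocyte genes rose in the same interval as *Dmp1* and *Mepe*. Of 6 osteocyte markers 5 were tested, among them *Phex*, which is also in the list of enzymes. All 5 rose from day 8 to day 14 in both genotypes, against 23.6% of all genes in WT and 26.5% in Het. The list median was 4.43 on the log2 scale in WT and 5.64 in Het. *Sost*, which encodes the secreted Wnt antagonist sclerostin, rose by 8.40 ± 0.71 in WT (adjusted p = 1.62e-08) and 11.64 ± 1.03 in Het (adjusted p = 2.11e-08). For Het against WT the list median was −1.52 at day 8, −0.33 at day 14 and −0.47 at day 21, beside −0.07, −0.08 and −0.01 over all genes. None of the 5 was called between genotypes at any day with all libraries. Without replicate 1 there were 2 lower at day 8 (*Dkk1* and *Phex*), 1 at day 14 (*Sost*) and 1 at day 21 (*Ackr3*). Of all genes 13.2%, 14.7% and 13.5% were then called lower at these days. *Sost* had log2 fold changes of −1.05 ± 0.44 at day 14 (adjusted p = 0.165) and −0.65 ± 0.43 at day 21 (adjusted p = 0.490). *Bglap*, whose profile was the nearest to that of *Mepe*, had −1.29 ± 0.51 at day 14 (adjusted p = 0.144) and −1.79 ± 0.51 at day 21 (adjusted p = 0.0971).

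For *Dmp1* and *Ibsp* in WT the place of replicate 1 among the libraries depended on the day. At day 8 replicate 1 of WT had 0.191 times the mean of the others for *Dmp1* and 0.383 times for *Ibsp*, and at day 21 it had 1.83 and 2.04 times. For *Mepe* and *Spp1* in WT it was above that mean at every day, by 2.02, 2.75 and 2.03 times and by 1.72, 1.04 and 2.36 times.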
